A study of Mus musculus with 12 samples.

Results

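The genes described here are the TGF-beta ligands Tgfb1, Tgfb2 and Tgfb3, their receptors Tgfbr1, Tgfbr2 and Tgfbr3, and the latent TGF-beta binding proteins Ltbp1, Ltbp2, Ltbp3 and Ltbp4, followed across primary tumours of 4 mouse mammary carcinoma lines. The members were chosen by gene symbol: every probeset annotated to one of these 10 symbols alone was taken, which gave 240 of the 207232 probesets with a single symbol and all 10 genes among the 15025 genes tested. The tumours were 4T1, 4T07, 168FARN and 67NR, with 3 Affymetrix exon arrays per line. Each tumour grew from cells of 1 line placed into the fat pad of BALB/c females that were 3 months old, and no other treatment is given in the labels. As background, the lines descend from a single mouse mammary tumour: 4T1 forms distant metastases, 4T07 reaches the lung without visible nodules, 168FARN reaches lymph nodes and 67NR does not spread. Each behaviour is thus represented by 1 cell line, so line and behaviour cannot be told apart, and the labels do not say that each array came from its own animal, so the p-values measure only how far these samples spread, which may be technical.

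TGF-beta is made as a precursor whose mature dimer stays wrapped in its own propeptide, the latency-associated peptide, and most cells secrete this latent complex bound to a latent TGF-beta binding protein that anchors it in the extracellular matrix. Integrins, thrombospondin and proteases free the dimer, which binds the type II receptor, Tgfbr2, and through it the type I receptor, Tgfbr1, whose kinase phosphorylates Smad2 and Smad3. In mammary epithelium the pathway is known to restrain growth, and in carcinomas it is known for driving epithelial-mesenchymal transition and matrix production.

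Values are log2 signals, and the level of a gene is the median of its probesets on an array. Array medians lay between 7.21 and 7.57. The background level was set at 5.08, the 95th percentile of the levels of 335 olfactory receptor genes. All 10 members were above it on all 12 arrays, with only Tgfb2 close to it. In 3 of the 4 lines the array with the highest median carried most of the highest member levels: 9 of the 10 members were highest on array 2 of 4T1 (median 7.41), 8 on array 3 of 4T07 (7.57) and 7 on array 3 of 168FARN (7.51). In 67NR, array 2 had the highest median (7.44) and 4 of the 10 highest levels. After each array's median was subtracted, all 26 member differences that passed the test kept their direction. The array medians lay closer together than any of these differences is large, so the subtraction could not have reversed a direction.

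The lines also differed in the levels of cell type marker genes. In bulk tumours, fewer cells of a type and less RNA per cell cannot be told apart. Nor can marker RNA of other cells be told apart from that of the tumour cells themselves. All 8 measured epithelial markers were above the background in each line, and their mean level was 9.24 ± 0.29 in 4T1, 9.03 ± 0.66 in 4T07, 7.32 ± 0.04 in 168FARN and 6.16 ± 0.46 in 67NR (SD, n = 3). The defining marker Epcam averaged 10.36, 9.82, 7.01 and 5.74 in those lines. The mean of 9 fibroblast markers was 8.60 ± 0.15 in 4T1, 8.68 ± 0.27 in 4T07, 9.43 ± 0.12 in 168FARN and 8.07 ± 0.16 in 67NR. Thy1 and Mfap5 of this list went the other way and were lowest in 168FARN, at 8.47 and 8.18. The mean of 9 skeletal muscle markers was 5.62, 8.22 and 9.21 on arrays 1, 2 and 3 of 168FARN, while the other lines had 5.41 to 6.31, so the members and the counts over lists were also computed with array 1 as the only 168FARN array. Single genes of the pathway lists were not recomputed that way. The mean of 6 measured neutrophil markers was 6.75 ± 0.08 in 4T1, 7.72 ± 0.13 in 4T07, 5.63 ± 0.35 in 168FARN and 5.43 ± 0.64 in 67NR, with 6, 6, 5 and 4 of them above the background. Platelets are a known store of TGF-beta1, and the mean of 5 platelet markers was 6.16 ± 0.05 in 4T1, 5.66 ± 0.14 in 4T07, 5.995 ± 0.33 in 168FARN and 6.50 ± 0.22 in 67NR.

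**Figure D1:**
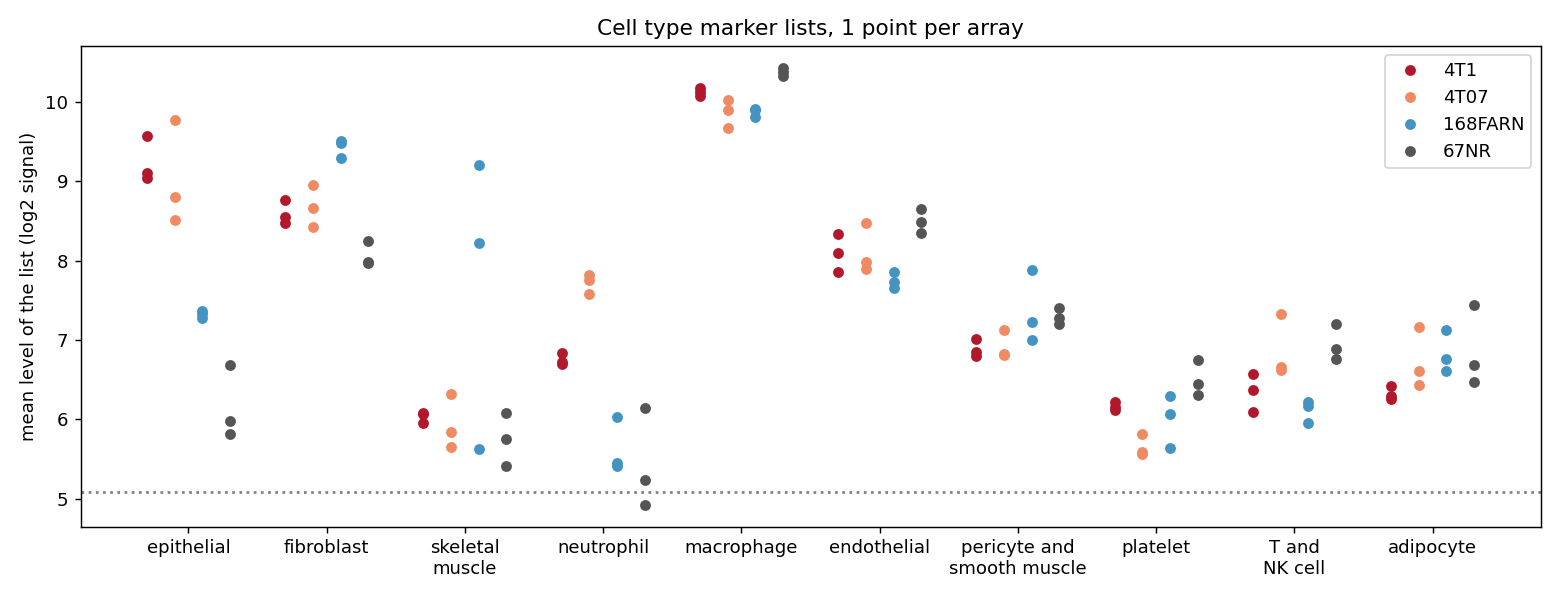
Mean log2 level of each cell type marker list on each array, with 1 point per array coloured by line and the dotted line at the background level of 5.08. Epithelial markers are highest in 4T1 and 4T07, fibroblast markers in 168FARN, and skeletal muscle markers reach 8.22 and 9.21 on 2 of the 3 168FARN arrays.

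By the moderated F-test of limma, 7 of the 10 members differed between lines, where 42% of all genes tested did. These were Tgfb3, Tgfbr1, Tgfbr2, Tgfbr3, Ltbp2, Ltbp3 and Ltbp4, while Tgfb1 (adjusted p = 0.0747), Ltbp1 (0.0761) and Tgfb2 (0.2) did not pass. Tgfb1 passed in 8 and Ltbp1 in 7 of 21 alternatives, and Tgfb2 in 2 of 20. In 4T1 against 67NR, Tgfb3, Tgfbr1, Ltbp2, Ltbp3 and Ltbp4 were higher and 0 members were lower, where 9.38% of all genes were higher and 13% lower. In 4T07 against 67NR, Tgfb3, Tgfbr1, Ltbp2 and Ltbp4 were higher and Tgfbr3 was lower, against shares of 11% and 12.7% of all genes. In 168FARN against 67NR, Tgfbr3 and Ltbp4 were higher and Tgfbr2 and Ltbp3 lower, against 13.5% and 11.2% of all genes.

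The median difference of the 10 members was 0.72 in 4T1, 0.36 in 4T07 and 0.10 in 168FARN, each minus 67NR, where all genes tested had medians of -0.036, -0.036 and 0.043. In 4T1 against 168FARN, 6 members were higher and 1 lower, where 11.9% of all genes were higher and 19.3% lower. In 4T07 against 168FARN, 2 members were higher and 2 lower, where 11.4% of all genes were higher and 16.8% lower. In 4T1 against 4T07, Tgfbr3 was the 1 member that was higher and 0 were lower, where 0.552% of all genes were higher and 1.82% lower. The median difference of the members was 0.66 in 4T1 minus 168FARN, 0.44 in 4T07 minus 168FARN and 0.27 in 4T1 minus 4T07, where all genes had medians of -0.078, -0.086 and -0.00074. These comparisons share their arrays, so their counts are not independent of each other.

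**Figure D2:**
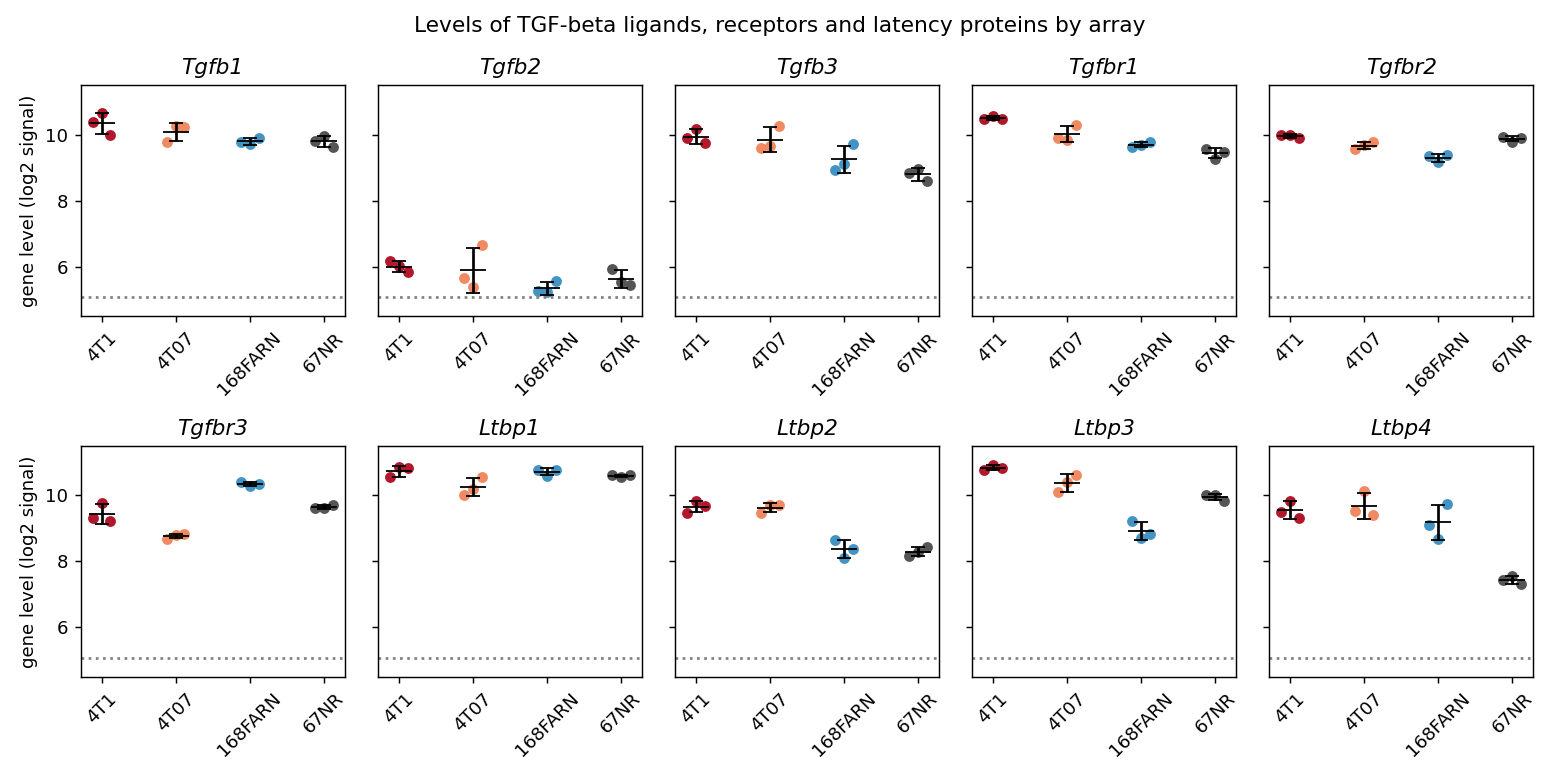
Level of each of the 10 genes (log2 signal) in the 4 lines, with 1 coloured point per array, the black bar and whiskers at the mean ± SD of 3 arrays, and the dotted line at the background level of 5.08. Ltbp4 is lowest in 67NR (7.33 to 7.56), Ltbp3 and Tgfbr3 stand at opposite ends in 168FARN, and Ltbp2 separates 4T1 and 4T07 from 168FARN and 67NR.

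Among the ligands, Tgfb3 differed between lines. Its product is a TGF-beta isoform known from palate and mammary gland development. Tgfb3 had levels of 9.90, 10.18 and 9.73 in 4T1, 9.60, 9.67 and 10.27 in 4T07, 8.94, 9.11 and 9.71 in 168FARN, and 8.84, 8.97 and 8.59 in 67NR. All 4T1 and 4T07 arrays were above all 67NR arrays, while 168FARN overlapped 4T07 and 67NR. Tgfb3 was 2.20-fold higher in 4T1 than in 67NR (9.94 ± 0.23 against 8.80 ± 0.20, SD, n = 3; log2 difference 1.14, SE 0.23, limma adjusted p = 0.00292). In 4T07 it was 2.07-fold higher than in 67NR (log2 difference 1.05, SE 0.23, limma adjusted p = 0.00486). In 4T1 against 168FARN, Tgfb3 differed by 0.68 (limma adjusted p = 0.0389), a call lost without 168FARN array 1 (0.138) or 2 (0.118), 4T1 array 1 (0.0802) or 2 (0.139), or 67NR array 1 (0.0505). Neighbours in the order 4T1, 4T07, 168FARN and 67NR did not pass the test against each other.

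Tgfb1, the ligand most widely produced by immune and stromal cells, had levels of 10.37, 10.64 and 10.0 in 4T1, 9.77, 10.26 and 10.22 in 4T07, 9.77, 9.71 and 9.91 in 168FARN, and 9.80, 9.95 and 9.62 in 67NR. The 4T1 arrays were all above those of 168FARN and 67NR, and the other lines overlapped. In 4T1 against 168FARN Tgfb1 differed by 0.54 (SE 0.19, limma adjusted p = 0.0424). This call was lost without any 1 array of 168FARN (0.0586 to 0.117), without 4T1 array 1 (0.108) or 2 (0.179), without 67NR array 1 (0.057) or 2 (0.0505), and with 168FARN array 1 alone (0.212). In 4T1 against 67NR the difference was 0.545 with adjusted p = 0.0537, and it passed the test in 9 of 21 alternatives, among them subtraction of array medians (0.0129), quantile normalization (0.0181) and median polish (0.00851). The platelet list averaged 6.16 in 4T1, 5.995 in 168FARN and 6.50 in 67NR. Of its 5 markers, Pf4 was higher in 4T1 than in 168FARN (9.04 against 7.73, limma adjusted p = 0.00147), while 0 were higher and 2 lower in 4T1 than in 67NR. Their part in the level of Tgfb1 was not tested.

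Tgfb2, a ligand known from heart and eye development, had levels of 5.84 to 6.17 in 4T1, 5.37 to 6.65 in 4T07, 5.22 to 5.56 in 168FARN and 5.43 to 5.94 in 67NR. All 4 ranges overlapped another line's and lay close to the background, and only 8 of its 19 probesets exceeded 6.17, the 95th percentile of olfactory receptor probesets. Of the 2 Tgfb2 probesets called by the F-test over single probesets, 4830540 averaged 5.45 in 4T1, 5.36 in 4T07, 3.51 in 168FARN and 3.44 in 67NR (adjusted p = 0.0169). Probeset 5107239 averaged 5.56, 5.998, 4.61 and 4.09 in the same lines (adjusted p = 0.0421). Both lie below that probeset threshold, and both were named after their values were seen.

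All 3 receptors differed among the lines, each in its own order. Tgfbr1 encodes the type I receptor kinase, ALK5, through which all TGF-beta isoforms signal. Its levels were 10.46, 10.56 and 10.46 in 4T1, 9.90, 9.85 and 10.30 in 4T07, 9.63, 9.67 and 9.78 in 168FARN, and 9.57, 9.27 and 9.47 in 67NR. The 4 lines did not overlap, in the order 4T1, 4T07, 168FARN and 67NR. Tgfbr1 was 2.08-fold higher in 4T1 than in 67NR (10.49 ± 0.06 against 9.44 ± 0.15, SD, n = 3; log2 difference 1.06, SE 0.15, limma adjusted p = 0.000207). It was 1.74-fold higher in 4T1 than in 168FARN (limma adjusted p = 0.0013). In 4T07 it was 1.5-fold higher than in 67NR (limma adjusted p = 0.0133), a call lost without 67NR array 2 (0.0673). Neighbouring lines in this order did not pass the test: the difference of 4T1 minus 4T07 was 0.48 (adjusted p = 0.15), that of 4T07 minus 168FARN 0.33 (0.132) and that of 168FARN minus 67NR 0.26 (0.253).

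Tgfbr2 encodes the type II receptor, which binds the ligand and activates the type I receptor. It was lowest in 168FARN, at 9.34, 9.16 and 9.39, against 9.93, 9.78 and 9.91 in 67NR. In 4T1 its levels were 9.98, 10.0 and 9.90, and in 4T07 they were 9.56, 9.67 and 9.76. All 168FARN arrays were below all others. Tgfbr2 fell by 0.58 in 168FARN against 67NR (9.30 ± 0.12 against 9.87 ± 0.08, SD, n = 3; SE 0.13, limma adjusted p = 0.00562). With 168FARN array 1 as the only array of its line the difference was -0.53 with adjusted p = 0.0895, and the F-test for Tgfbr2 no longer passed (0.0726). In 4T1 it was 1.58-fold higher than in 168FARN (limma adjusted p = 0.0017). The difference of 4T07 minus 168FARN was 0.37 (adjusted p = 0.0508), and after subtraction of array medians it was 0.39 (0.0181).

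Tgfbr3 encodes betaglycan, a co-receptor that presents ligand to the type II receptor and, once shed, can bind ligand away from it. Its levels were 9.32, 9.78 and 9.22 in 4T1, 8.69, 8.79 and 8.83 in 4T07, 10.41, 10.28 and 10.33 in 168FARN, and 9.62, 9.61 and 9.70 in 67NR. The 168FARN arrays were the highest of all and the 4T07 arrays the lowest, while 4T1 and 67NR overlapped. Tgfbr3 was 1.62-fold higher in 168FARN than in 67NR (10.34 ± 0.07 against 9.64 ± 0.05, SD, n = 3; limma adjusted p = 0.00481). It was lower in 4T07 than in 67NR, by a log2 difference of -0.88 (8.77 ± 0.07 against 9.64 ± 0.05; SE 0.15, limma adjusted p = 0.000952). The difference of 4T07 minus 168FARN was -1.57 (limma adjusted p = 7.78e-06) and that of 4T1 minus 168FARN was -0.90 (limma adjusted p = 0.000605).

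In 4T1, Tgfbr3 was 1.59-fold higher than in 4T07 (9.44 ± 0.30 against 8.77 ± 0.07, limma adjusted p = 0.0358), the one member that passed the test between these lines. That call rests on a narrow margin: it was lost without 4T1 array 1 (0.0879) or 2 (0.154), 4T07 array 1 (0.0799) or 2 (0.117), 168FARN array 3 (0.0504), or 67NR array 1 (0.0569), 2 (0.0567) or 3 (0.0527), and with 168FARN array 1 alone (0.0637). With 168FARN array 1 alone, Tgfbr3 in 168FARN minus 67NR was 0.77 with adjusted p = 0.0513, while its differences of 4T07 and 4T1 minus 168FARN were -1.65 (0.000858) and -0.97 (0.0145). The mean of the fibroblast markers was also highest in 168FARN (9.43 against 8.07 in 67NR), and 7 of the 9 were higher there than in 67NR. In 4T07, 6 of the 9 were higher than in 67NR and 0 lower, while Tgfbr3 was lower there. The part of these markers in the level of Tgfbr3 was not tested.

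**Figure D3:**
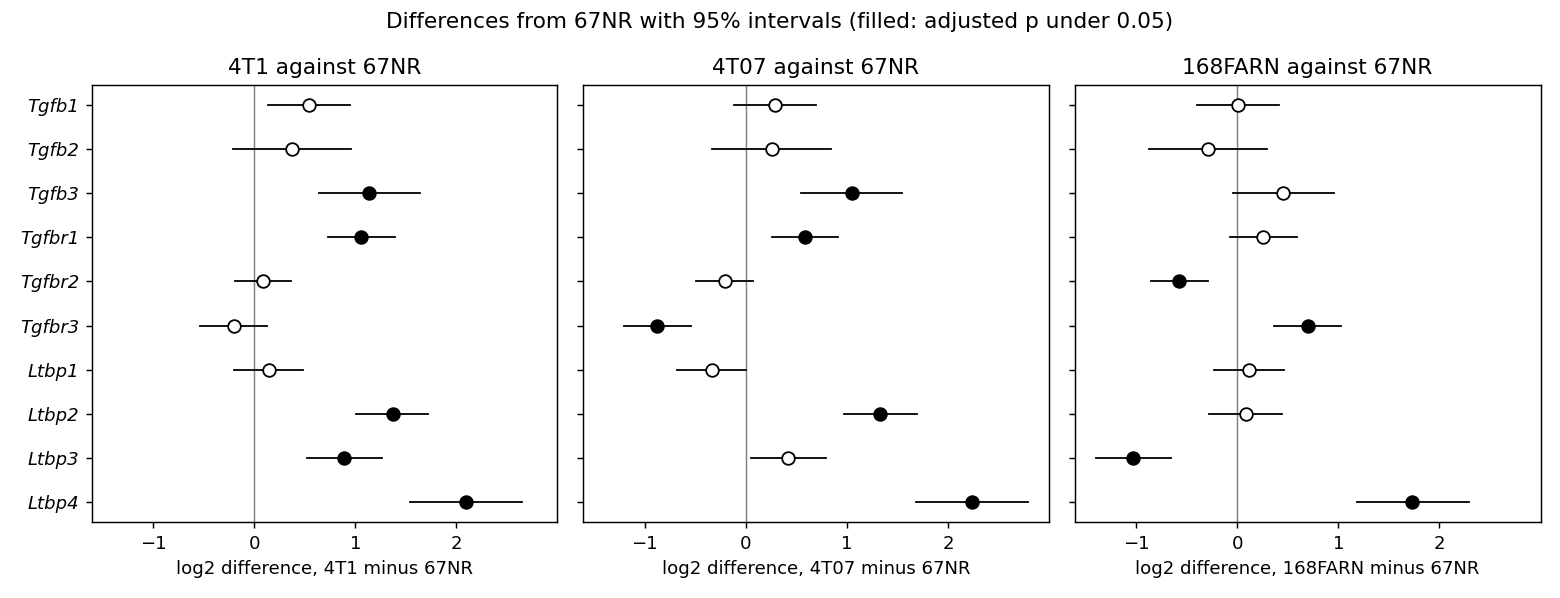
Log2 difference of each gene in 4T1, 4T07 and 168FARN, each minus 67NR, with its 95% interval from the limma fit and filled points for adjusted p under 0.05. Ltbp4 is filled in all 3 panels (2.10, 2.24 and 1.73), Ltbp3 is positive in 4T1 and negative in 168FARN, and Tgfbr3 is negative in 4T07 and positive in 168FARN.

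The latency proteins are secreted glycoproteins of the fibrillin family. Ltbp4 and Ltbp3 had the widest spans of line means among the 10 members, 2.24 and 1.92. Tgfbr3 (1.57) and Ltbp2 (1.37) followed, and Ltbp1 had the narrowest span (0.48). The 250 bases before an annotated transcript start, from RefSeq on GRCm38.p6, are shown for Ltbp2, Ltbp3 and Ltbp4. These are the 3 members with the widest spans of line means beside Tgfbr3. Capitals mark CAGAC or its reverse complement GTCTG, the short element that Smad proteins are known to bind. Both strands were searched by looking for these letters.
Ltbp2 promoter (chr12:84876492-84876741, minus strand): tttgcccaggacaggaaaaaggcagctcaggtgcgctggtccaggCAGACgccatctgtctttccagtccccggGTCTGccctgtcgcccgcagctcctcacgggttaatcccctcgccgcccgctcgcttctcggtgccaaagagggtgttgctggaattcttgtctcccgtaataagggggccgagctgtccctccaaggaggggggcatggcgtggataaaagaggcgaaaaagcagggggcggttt
Ltbp3 promoter (chr19:5740650-5740899, plus strand): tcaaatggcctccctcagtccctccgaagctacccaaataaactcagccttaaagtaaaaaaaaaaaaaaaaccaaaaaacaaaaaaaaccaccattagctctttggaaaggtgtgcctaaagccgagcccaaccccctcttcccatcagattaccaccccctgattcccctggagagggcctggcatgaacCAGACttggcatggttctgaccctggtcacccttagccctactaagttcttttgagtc
Ltbp4 promoter (chr7:27337613-27337862, minus strand): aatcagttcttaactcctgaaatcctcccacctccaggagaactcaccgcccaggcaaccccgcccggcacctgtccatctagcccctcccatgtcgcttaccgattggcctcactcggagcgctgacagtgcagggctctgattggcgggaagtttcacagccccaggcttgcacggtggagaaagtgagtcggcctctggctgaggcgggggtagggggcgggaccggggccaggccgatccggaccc
The element occurred 2 times before Ltbp2, 1 time before Ltbp3 and 0 times in this window of Ltbp4. It was present in 42.2% of 32851 promoter windows of the same length, so its presence is common, and its absence from 250 bases says only that these letters are not in this window. RefSeq windows were found for 8 of the 10 members, 12 windows in all, of which 7 held the element. The Ltbp4 starts that had such a window lie up to 3964 bases apart, and the window shown belongs to the outermost of these. The RefSeq gene reaches base 27339720, beyond that start at 27337612.

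Ltbp4 associates with latent TGF-beta1 and is known for elastic fibre assembly. Ltbp4 had levels of 9.49, 9.84 and 9.30 in 4T1, 9.52, 10.12 and 9.40 in 4T07, 9.11, 8.69 and 9.73 in 168FARN, and 7.45, 7.56 and 7.33 in 67NR. Every array of the other lines was above every 67NR array, and the other lines overlapped each other. Ltbp4 was 4.28-fold higher in 4T1 than in 67NR (9.54 ± 0.28 against 7.45 ± 0.12, SD, n = 3; log2 difference 2.10, SE 0.26, limma adjusted p = 5.37e-05). It was 4.71-fold higher in 4T07 than in 67NR (9.68 ± 0.39; limma adjusted p = 3.25e-05). In 168FARN it was 3.32-fold higher than in 67NR (9.18 ± 0.52; limma adjusted p = 0.000318), and with 168FARN array 1 alone the log2 difference was 1.66 (0.00445). Between 4T1, 4T07 and 168FARN it did not pass the test, with log2 differences of -0.14 (4T1 minus 4T07), 0.50 (4T07 minus 168FARN) and 0.37 (4T1 minus 168FARN). Epithelial and fibroblast marker lists had their lowest means in 67NR as well (6.16 and 8.07), and their part in the level of Ltbp4 was not tested.

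Ltbp2 differs from its relatives in that it is known not to bind latent TGF-beta, and it takes part in microfibril assembly. Ltbp2 had levels of 9.48, 9.82 and 9.68 in 4T1, 9.46, 9.70 and 9.71 in 4T07, 8.64, 8.10 and 8.38 in 168FARN, and 8.16, 8.30 and 8.42 in 67NR. The 4T1 and 4T07 arrays were all above those of 168FARN and 67NR, and each of these pairs of lines overlapped within itself. Ltbp2 was 2.58-fold higher in 4T1 than in 67NR (9.66 ± 0.17 against 8.29 ± 0.13, SD, n = 3; log2 difference 1.37, SE 0.17, limma adjusted p = 4.97e-05). It was 2.52-fold higher in 4T07 than in 67NR (limma adjusted p = 6.25e-05), 2.44-fold higher in 4T1 than in 168FARN (limma adjusted p = 7.02e-05) and 2.38-fold higher in 4T07 than in 168FARN (limma adjusted p = 0.000102). The differences of 4T1 minus 4T07 (0.033) and of 168FARN minus 67NR (0.081) did not pass the test. The mean of the epithelial markers followed the same division of lines, at 9.24 and 9.03 in 4T1 and 4T07 against 7.32 and 6.16 in 168FARN and 67NR. So did that of the neutrophil markers, at 6.75 and 7.72 against 5.63 and 5.43. Of the 8 epithelial markers, 7 were higher in 4T1 and 7 in 4T07 than in 67NR. Against 168FARN, 5 were higher in 4T1 and 5 in 4T07, with 0 lower in each comparison. Krt8 divided the lines otherwise, at 12.07, 11.64 and 11.44 in 4T1, 4T07 and 168FARN against 6.60 in 67NR. Of the 6 neutrophil markers, 4 were higher in 4T1 and 5 in 4T07 than in 67NR, and 3 in 4T1 and 5 in 4T07 than in 168FARN, with 0 lower in each. The part of either list in the level of Ltbp2 was not tested. With 168FARN array 1 alone, the Ltbp2 difference was 1.02 in 4T1 (limma adjusted p = 0.00804) and 0.98 in 4T07 (limma adjusted p = 0.011), each minus 168FARN.

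Ltbp3 binds latent TGF-beta and is known for its part in bone and tooth development. Ltbp3 had levels of 10.77, 10.93 and 10.81 in 4T1, 10.09, 10.40 and 10.62 in 4T07, 9.22, 8.70 and 8.84 in 168FARN, and 10.0, 10.02 and 9.83 in 67NR. The 4 lines did not overlap, in the order 4T1, 4T07, 67NR and 168FARN. Ltbp3 was 1.85-fold higher in 4T1 than in 67NR (10.84 ± 0.08 against 9.95 ± 0.10, SD, n = 3; limma adjusted p = 0.00201). It fell by 1.03 on the log2 scale in 168FARN against 67NR (8.92 ± 0.27 against 9.95 ± 0.10; SE 0.17, limma adjusted p = 0.000769). With 168FARN array 1 as its line's only array that difference was -0.73 with adjusted p = 0.0583. Ltbp3 was 3.78-fold higher in 4T1 than in 168FARN (limma adjusted p = 2.97e-06) and 2.73-fold higher in 4T07 than in 168FARN (limma adjusted p = 4.27e-05), with log2 differences of 1.62 (0.000698) and 1.15 (0.00643) against array 1 alone. The difference of 4T07 minus 67NR was 0.42 (adjusted p = 0.0984), and that of 4T1 minus 4T07 was 0.47 (0.23).

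Ltbp1, the main carrier of latent TGF-beta1, was the steadiest of the 4 by its span of line means, 0.48. Ltbp1 had levels of 10.54 to 10.85 in 4T1, 10.02 to 10.56 in 4T07, 10.59 to 10.77 in 168FARN and 10.56 to 10.62 in 67NR. In 4T07 it was lower than in 168FARN by a log2 difference of -0.45 (10.25 ± 0.27 against 10.71 ± 0.11, SD, n = 3; limma adjusted p = 0.0484). That call was lost in each fit that left out 1 array, with adjusted p between 0.0544 and 0.149, except the fit without 4T07 array 3 (0.0106). It was also lost with 168FARN array 1 as its line's only array (0.188).

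The single probesets of the genes that differed mostly moved with the gene. An F-test over single probesets called 170 of the 240 members' probesets, where it called 27.2% of all probesets. They include 43 of 45 for Ltbp2, 28 of 30 for Ltbp3, 37 of 44 for Ltbp4 and 19 of 20 for Tgfbr3. For Tgfb3 the number was 8 of 11, for Tgfbr1 6 of 11, for Tgfbr2 5 of 12, for Tgfb1 5 of 9, for Ltbp1 17 of 39 and for Tgfb2 2 of 19. All 45 Ltbp2 probesets were higher in 4T1 than in 67NR, with log2 differences between 0.59 and 1.82, and 41 passed the test. All 30 Ltbp3 probesets were lower in 168FARN than in 67NR, with differences between -1.46 and -0.031, and 25 passed. All 20 Tgfbr3 probesets were lower in 4T07 than in 168FARN, from -2.04 to -0.33, and 19 passed. Tgfbr2 was less uniform: in 168FARN against 67NR 10 of its 12 probesets were lower and 2 higher, and 4 passed, all lower. The share of all probesets passing was not computed for single pairs of lines. Probesets of a gene share its transcripts and arrays and are not replicates.

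**Figure D4:**
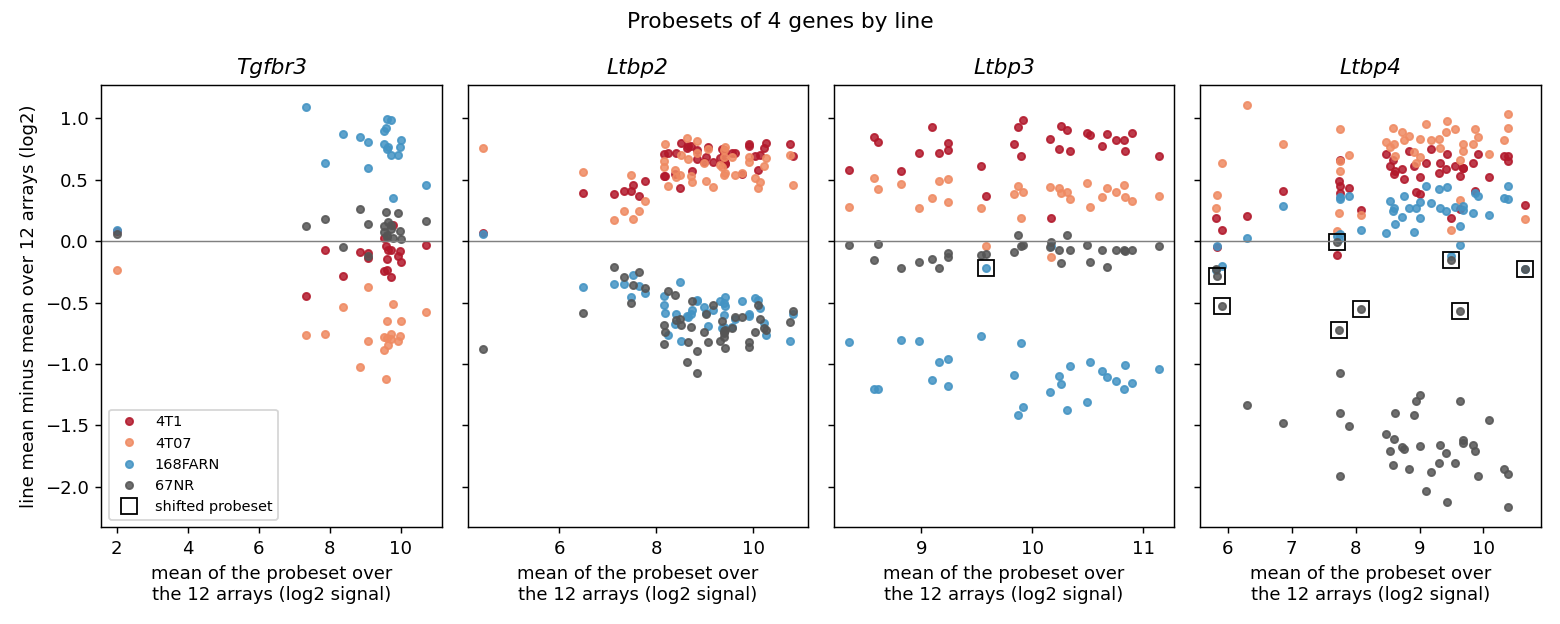
Probesets of Tgfbr3, Ltbp2, Ltbp3 and Ltbp4, with the mean log2 signal of the probeset over 12 arrays on the horizontal axis and each line's mean minus that value on the vertical axis, coloured by line. Squares mark, at the value of 168FARN for Ltbp3 and of 67NR for Ltbp4, the 1 and 8 probesets whose change differed from the rest of their gene in both exon-level tests.

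Some probesets of the latency proteins did not follow their gene. The exon-level test compares the change of a probeset with that of the other probesets of its gene, and it covered 213 member probesets, with none of Tgfb2. It called 13 of them, where 2.29% of all probesets tested were called. Of these, 2 lie in Ltbp1, 2 in Ltbp3 and 9 in Ltbp4. That test shares 1 estimate of spread among the probesets of a gene, so a noisy probeset passes more easily. A splicing index, which uses the spread of each probeset itself, also called 10 of the 13: 1 in Ltbp1, 1 in Ltbp3 and 8 in Ltbp4, where 0.993% of all probesets were called by both.

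In Ltbp4 the called probesets differed less between 67NR and the other lines than the gene did. Probeset 4946926 averaged near its overall mean of 7.70 in every line, with 7.51, 7.36 and 7.90 in 4T1, 8.04, 7.81 and 7.50 in 4T07, 7.84, 7.83 and 7.56 in 168FARN, and 7.58, 7.63 and 7.87 in 67NR. All lines overlapped there, and its change relative to the rest of Ltbp4 was -2.03 in 4T1, -2.05 in 4T07 and -1.58 in 168FARN, each minus 67NR (limma adjusted p = 1.39e-06, 1.02e-06 and 0.000736). For probeset 4943916 the relative changes were -1.57, -1.89 and -1.60, and for probeset 5157111 they were -1.39, -1.73 and -1.63. The other 5 Ltbp4 probesets called by both tests also had negative relative changes against 67NR. Of these, 4886208 and 5379270, named after their values were seen, had 67NR means of 5.55 and 5.39, under the probeset threshold of 6.17. Which exons these probesets cover was not analysed here.

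In Ltbp1, probeset 4725450 rose in 4T07 against 67NR relative to the rest of its gene, by 1.53 (limma adjusted p = 4.83e-10), and in 168FARN by 1.09 (limma adjusted p = 5.62e-05). Its signals were 6.68, 7.29 and 6.69 in 4T1, 6.92, 7.73 and 7.24 in 4T07, 7.27, 7.05 and 7.57 in 168FARN, and 5.70, 6.15 and 6.40 in 67NR, so every array of the other lines was above 67NR. Its 67NR mean of 6.08 lay under the probeset threshold of 6.17, so the size of this relative change is uncertain. Probeset 4736838 of Ltbp1 was called by the exon-level test alone, and its 67NR arrays, at 3.81 to 6.06, all lay under that threshold, so no size is given for its change. In Ltbp3, probeset 5583034 lagged behind its gene in 4T1 against 168FARN by -1.24 (limma adjusted p = 6.5e-06), with 9.82, 9.98 and 10.06 in 4T1 against 9.39, 9.34 and 9.38 in 168FARN. Probeset 4456410 of Ltbp3 was called by the exon-level test alone, with a relative change of -1.60 in 4T1 against 168FARN.

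Among genes that activate or hold latent TGF-beta, 13 of 15 differed among the lines, beside 42% of all genes. The shares and medians of all genes given above for each pair of lines hold for this and the following lists too. In 4T1 against 67NR 8 were higher and 1 lower, in 4T07 against 67NR 9 and 2, and in 168FARN against 67NR 5 and 2, with median differences of 0.81, 0.99 and 0.38. Bmp1, a protease that can cleave latent TGF-beta binding proteins, averaged 11.72 ± 0.10 in 4T1, 11.19 ± 0.31 in 4T07, 9.32 ± 0.12 in 168FARN and 9.77 ± 0.05 in 67NR (SD, n = 3; F-test adjusted p = 2.74e-07 by limma). Itgb3, an integrin subunit that pairs with the alpha v chain, averaged 8.44, 8.29, 6.71 and 7.20 in these lines. Mmp2, a gelatinase, and Emilin1, which is known to hinder processing of the TGF-beta precursor, were highest in 168FARN: Mmp2 averaged 9.53, 9.73, 11.44 and 8.74, and Emilin1 7.42, 7.33, 9.16 and 8.00. Itgav, which encodes the alpha v chain and was named after its values were seen, was not called (adjusted p = 0.0644).

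Of 7 proteins that bind or block TGF-beta family ligands, 6 differed among the lines. In 168FARN against 67NR 4 were higher and 0 lower, with a median difference of 2.01, and in 4T1 against 67NR 2 were higher and 1 lower, with a median of 0.025. Decorin (Dcn) and asporin (Aspn), small proteoglycans that bind TGF-beta, were highest in 168FARN, where the mean of the fibroblast marker list was also highest. Of its 9 markers, 2 were higher and 6 lower in 4T1 than in 168FARN, and 2 were higher and 5 lower in 4T07. The part of these markers in the levels of Dcn and Aspn was not tested. Dcn averaged 10.54 ± 0.40 in 4T1, 11.65 ± 0.13 in 4T07, 13.55 ± 0.19 in 168FARN and 10.52 ± 0.07 in 67NR, and Aspn averaged 6.80, 6.79, 11.55 and 7.44. Cd109, a TGF-beta co-receptor that promotes receptor turnover, fell by 3.29 in 4T1 and by 3.77 in 4T07 against 67NR (limma adjusted p = 5.49e-06 and 1.9e-06). Fst, the activin antagonist follistatin, averaged 6.47, 7.59 and 7.13 in 4T1, 4T07 and 168FARN against 4.96 in 67NR, below the background level.

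Of 9 related receptors and co-receptors, 5 differed among the lines. Endoglin (Eng), a co-receptor of endothelial cells, was higher in 4T1 (10.15 ± 0.12) than in 67NR (9.23 ± 0.05; limma adjusted p = 0.00212) and 4T07 (9.39 ± 0.40; limma adjusted p = 0.0407). Endothelial markers averaged 8.10 ± 0.24 in 4T1 and 8.49 ± 0.15 in 67NR. The activin receptor Acvr2b was lower in 168FARN than in 67NR (-0.97, limma adjusted p = 0.00136), and Acvr2a was lower in 4T1 than in 67NR (-0.56, limma adjusted p = 0.0125). The BMP receptor Bmpr1a was higher in all 3 other lines than in 67NR, by 0.64 in 4T1, 0.79 in 4T07 and 0.76 in 168FARN (limma adjusted p = 0.00657, 0.00154 and 0.00211). With 168FARN array 1 as its line's only array, fewer of the 9 differed among the lines, and so did fewer of all genes.

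Of 13 Smads and intracellular regulators, 9 differed among the lines. Fewer did with array 1 as the only 168FARN array, where fewer of all genes differed too. In 168FARN against 67NR 1 was higher and 3 were lower, while in 4T1 against 168FARN 7 were higher and 3 lower, with medians of -0.26 and 0.56 (all genes, 0.043 and -0.078). The signal transducer Smad3 averaged 9.96 ± 0.08 in 4T1, 9.78 ± 0.14 in 4T07, 8.57 ± 0.30 in 168FARN and 9.55 ± 0.13 in 67NR, and it fell by 0.98 in 168FARN against 67NR (limma adjusted p = 0.000713). The inhibitory Smad7, itself induced by TGF-beta, fell by 0.61 in 168FARN against 67NR (limma adjusted p = 0.00726). Smad2, Smad4 and Smad6 were not called by the F-test (adjusted p = 0.0577, 0.217 and 0.377). Pmepa1, an induced inhibitor of Smad signalling, averaged 11.96 ± 0.13 in 4T1, 11.88 ± 0.15 in 4T07, 9.83 ± 0.25 in 168FARN and 11.48 ± 0.11 in 67NR. The co-repressors Skil and Tgif2 were higher in 4T1 than in 67NR by 1.31 and 1.09 (limma adjusted p = 8.18e-05 and 7.25e-05). In 4T07 they were higher than in 67NR by 1.13 and 1.07 (limma adjusted p = 0.000261 and 8.32e-05).

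Of 16 TGF-beta target genes, 10 differed among the lines. In 4T1 against 67NR 6 were higher and 2 lower, in 4T07 against 67NR 8 and 2, and in 168FARN against 67NR 2 and 1, with median differences of 0.27, 0.81 and 0.16. Ccn2, a matricellular protein, averaged 9.82 ± 0.39 in 4T1, 11.44 ± 0.27 in 4T07, 8.16 ± 0.31 in 168FARN and 8.24 ± 0.09 in 67NR, and its difference of 4T1 minus 4T07 was -1.61 (limma adjusted p = 0.00142). Periostin (Postn) was higher than in 67NR by 2.06 in 4T1 and 1.85 in 4T07 (limma adjusted p = 0.000292 and 0.000632). The cell cycle inhibitor Cdkn1a and the transcription factor Snai2 were lower: Cdkn1a by -2.06 in 4T1 and -2.09 in 4T07, and Snai2 by -2.29 and -1.84, each minus 67NR. Cdkn1a and Snai2 averaged 10.40 and 8.10 in 168FARN, against 10.81 and 8.13 in 67NR, and did not pass the test there.

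**Figure D5:**
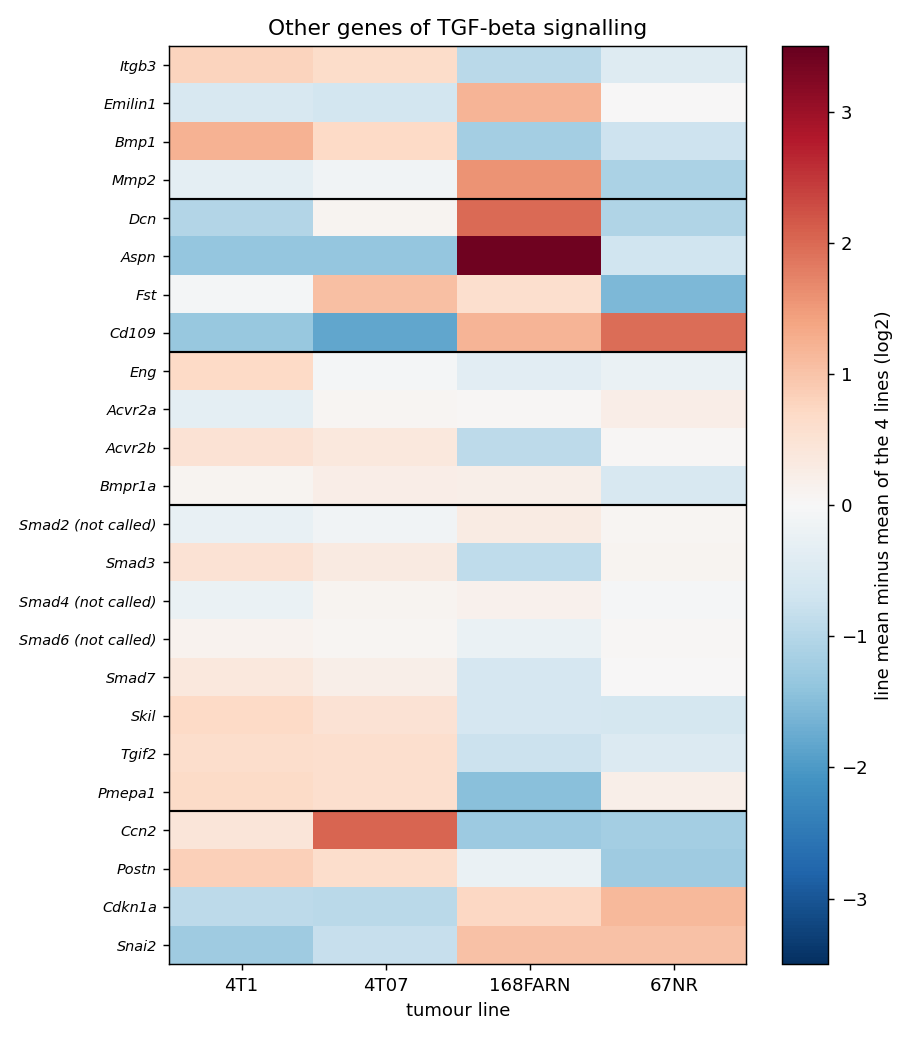
Line means of 24 genes of TGF-beta signalling minus the mean of the 4 lines (log2, red higher and blue lower), with black lines between the 5 lists and "not called" for genes that missed the F-test. Bmp1, Itgb3, Skil and Tgif2 are red in 4T1 and 4T07, Dcn, Aspn and Mmp2 are red in 168FARN, and Pmepa1 is blue in 168FARN.

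The genes most like each member were found by Pearson correlation of levels over the 12 arrays, which fall into 4 lines, so the values mostly reflect line means and carry no p. For Ltbp4 these were Mov10 (r = 0.972), Kdm5b (0.966) and Eps8l2 (0.961), and Mov10 averaged 10.19, 10.07, 9.50 and 7.39 in 4T1, 4T07, 168FARN and 67NR. For Ltbp2 they were Aif1l (0.986), B3gnt3 (0.985) and Ptprf (0.985), and for Ltbp3 they were Rbm47 (0.985), Fbln2 (0.98) and Dmtn (0.978). For Tgfbr3 they were Gnao1 (0.982), Twist1 (0.961) and Galnt7 (0.955), and Twist1 averaged 8.99, 7.31, 10.39 and 9.40 in the 4 lines. For Tgfbr1 they were Thnsl2 (0.972), Eya2 (0.97) and Bcl11a (0.968), and for Tgfb3 they were Cnot7 (0.966), Dtx4 (0.965) and Agap1 (0.962).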

How the data were processed

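The deposited table holds 1 log2 signal per probeset and array for 12 arrays. That the scale is log2 was read from the values. Their summarization, background correction and normalization are not described in the labels or the file, and no genome build is named. Probesets were paired with symbols through the platform's annotation, updated through RefSeq (GRCm38.p6, names and promoter sequences only). Of the probesets, 207232 had 1 symbol, 3882 several and 16976 none. Gene levels are medians of probesets, for genes with at least 3. Groups were compared in 1 fit of all 12 arrays (limma 3.58.1, R 4.3.3, lmFit and eBayes) with Benjamini-Hochberg adjustment over all genes, called at adjusted p under 0.05. The exon-level test was diffSplice on 110320 probesets in 7349 genes, with the same adjusted p threshold and a relative change of 1 or more. A splicing index was run beside it, since tests on simulated data showed that diffSplice alone passes noisy probesets. The F-tests over genes and over single probesets, diffSplice and the splicing index were run on simulated data, and the alternative fits were not.

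The members and lists were chosen with earlier results of these data known. Named are all members, up to 3 called probesets per member, the Smads, up to 4 called genes per list by span of line means, and the 3 likest genes per called member whose line means span at least 1. Exceptions are marked in the text. Itgb8, Lrrc32, Fmod, Acvr1c, Zfyve9 and Lox were not analysed here. Precision is limited by the number of arrays. Alternatives covered the probeset summary, scaling, filters, the variance model, a replicate block and left-out arrays.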

Additional observations from a re-analysis of the deposited data

How the results depend on the processing

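All 26 member differences that passed the test kept their direction under the 21 alternatives, and 18 of them passed in every one. The number of members differing among the lines was 7, and 7 to 9 with 1 array left out. It was 10 with the mean of the probesets and 9 each with median polish, quantile normalization and subtraction of array medians. It was also 9 with dim genes left out and with eBayes with trend and robust settings. With 168FARN array 1 as its line's only array it was lower. Over all genes the F-test count moved too, from 6312 to 7354 with the mean of the probesets and 7543 with median polish. It was 7017 with quantile normalization, 6925 with subtraction of array medians and 6765 with trend and robust settings. With dim genes left out it was 4748, where fewer genes were tested. With 1 array left out, the members called numbered 4 in every fit for 168FARN against 67NR, 4 to 6 for 4T07 against 67NR, 5 to 6 for 4T1 against 67NR, 3 to 5 for 4T07 against 168FARN, 5 to 8 for 4T1 against 168FARN, and 0 to 3 for 4T1 against 4T07. With 168FARN array 1 as its line's only array, fewer members passed for 168FARN against 67NR. Fewer related receptors, and fewer Smads and regulators, then differed among the lines. Calls over all genes fell in that fit too. Its differences of 168FARN minus 67NR were -0.53 for Tgfbr2, 0.77 for Tgfbr3 and -0.73 for Ltbp3. Fewer arrays entered that fit, and it takes the spread of 168FARN from the other lines. With median polish, 8 members passed for 4T07 against 67NR and 2 for 4T1 against 4T07. Over all genes, median polish moved the counts of these comparisons from 3561 to 4383 and from 357 to 547. With quantile normalization 7 members passed for 4T07 against 168FARN, where the count over all genes rose from 4248 to 4777. After subtraction of array medians 2 members passed for 4T1 against 4T07, where the count over all genes rose from 357 to 433. The cause was not tested. Arrays with the same replicate number were only slightly more alike than arrays with different numbers. Deviations of arrays with the same number correlated with a mean of 0.036 (-0.086 to 0.191 over 18 pairs). For different numbers the mean was -0.018 (-0.16 to 0.224 over 36 pairs). These values do not settle whether the numbers pair the samples. With the replicate block, 0 members passed for 4T1 against 4T07 (Tgfbr3, limma adjusted p = 0.0563), and no other call of a member was lost. Of all genes, 349 instead of 357 passed there. More genes passed in every other comparison and by the F-test (6405 instead of 6312). Member probesets differing among the lines numbered 170, and 142 to 165 with 1 array left out. Relative changes numbered 13, 10 to 14 with 1 array left out, and 8 when only probesets above the median signal were tested, which tests fewer probesets. With 1 array left out, the list counts were 11 to 13 for activation partners, 5 to 6 for binding proteins, 3 to 6 for related receptors, 6 to 10 for Smads and regulators and 9 to 11 for target genes. Precision is limited by 3 arrays per line, and Tgfb2 by signals near the background.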
